A study of Homo sapiens with 12 samples.

Results

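The genes described here are the translation initiation and elongation factors, taken as the protein-coding genes whose symbol begins with EIF1, EIF2, EIF3, EIF4, EIF5, EIF6 or EEF, without the EIF2AK kinases. Of the 58347 genes counted in each sample, 66 met this rule, and 61 of these were among the 16740 genes with enough counts to be tested. A375, a human melanoma line in long use that carries mutant BRAF, was profiled by RNA-seq after 8 h with the DMSO vehicle, with tretinoin, with vemurafenib or with both drugs together (the combination). Vemurafenib is a BRAF inhibitor, and tretinoin is a ligand of the retinoic acid receptors. Each of the 4 groups had 3 replicates, every group is listed at 5 µM, and all samples are of this cell line. Nothing in the labels places the replicates in separate cultures on separate days, so p-values cover the spread between these samples only. Each drug was compared with DMSO to ask how the factors responded to it, and the combination was compared with each single drug to ask what the second drug added.

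Translation begins when eIF2, bound to GTP, brings the initiator tRNA to the small ribosomal subunit, where eIF1, eIF1A, eIF5 and the many-subunit eIF3 complex help to find the start codon. The mRNA is brought in by eIF4F, which joins the cap-binding protein eIF4E, the scaffold eIF4G and the helicase eIF4A, and eIF4E-binding proteins keep eIF4E away from eIF4G. After the start codon, eEF1A delivers aminoacyl-tRNAs and eEF2 moves the ribosome along, and in BRAF-mutant melanoma the ERK and mTOR pathways are known to act on eIF4F.

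The libraries held between 13510235 and 21534377 counts. Values per sample are counts per 1000000 (CPM) after scaling by edgeR's TMM method, and changes are log2 fold changes ± standard error from edgeR's quasi-likelihood test, called at a Benjamini-Hochberg adjusted p below 0.05. The treatments left their marks in the labelled samples. The summed CPM of 5 genes that report on BRAF-MEK-ERK signalling was between 659.1 and 679.5 in DMSO and between 41.57 and 46.33 in vemurafenib. The sum of 4 retinoid-responsive genes was between 27.33 and 34.41 in DMSO and between 160.2 and 179.2 in tretinoin. Most of it came from DHRS3, with a mean of 20.77 CPM in DMSO and 155.9 in tretinoin. DHRS3 and CYP26B1 were called higher with tretinoin, while CYP26A1 and RARB were not (adjusted p = 0.633 and 0.101). That sum was also higher with vemurafenib alone, between 82.02 and 89.23. Of 7 melanocyte lineage genes, MITF and S100B were counted in every sample, SOX10 was listed at 0 in all 12 samples, PMEL had between 8 and 25 counts, and MLANA, TYR and DCT had at most 19, 1 and 18. EEF1G, a gene that every cell uses, is also listed at 0, but 99.9% of its exon length is also exon of another counted gene. For SOX10 that share was 2.4%. Whether the 0 of SOX10 stands for an absent transcript was not tested. Some markers of other cell types moved with the treatments. The sum of 4 epithelial genes lay between 12.56 and 16.82 CPM in DMSO, 10.04 and 15.17 in tretinoin, 29.4 and 32.27 in vemurafenib and 26.71 and 35.99 in the combination, most of it from KRT14. The sum of 3 endothelial genes lay between 5.285 and 6.552 in DMSO, 12.71 and 17.23 in tretinoin, 2.404 and 3.168 in vemurafenib and 5.337 and 6.202 in the combination, and CDH5 rose with tretinoin (1.54 ± 0.17, adjusted p = 1.55e-05) and fell with vemurafenib (-4.96 ± 0.34, adjusted p = 2.02e-09). The sum of 4 haematopoietic genes was at most 5.282 CPM, and PTPRC rose with each treatment. Their part in the results was not tested.

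Vemurafenib lowered 34 of the 61 tested factors and raised 7, while the other 20 did not pass the test. In percent, 55.7 of the factors fell, against 26.3% of all tested genes called lower and 26.4% called higher. Highly counted genes fell more often than others, with 47.4% lower among the 4185 tested genes of highest level, and of the 45 factors among those 28 fell, or 62.2%. The median log2 fold change was -0.25 over the factors, -0.18 over the 4185 highest genes and 0.02 over all tested genes. The combination lowered 27 factors and raised 6, so that 44.3% fell, beside 26.5% of all tested genes called lower and 27.1% called higher. Among the 4185 highest genes 42.2% of the factors and 47.2% of all genes fell, so with the combination the share of falling factors was close to that of other highly counted genes. Vemurafenib and the combination were compared with the same DMSO samples. In bulk RNA, fewer cells of a type and less RNA per cell cannot be told apart.

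**Figure D1:**
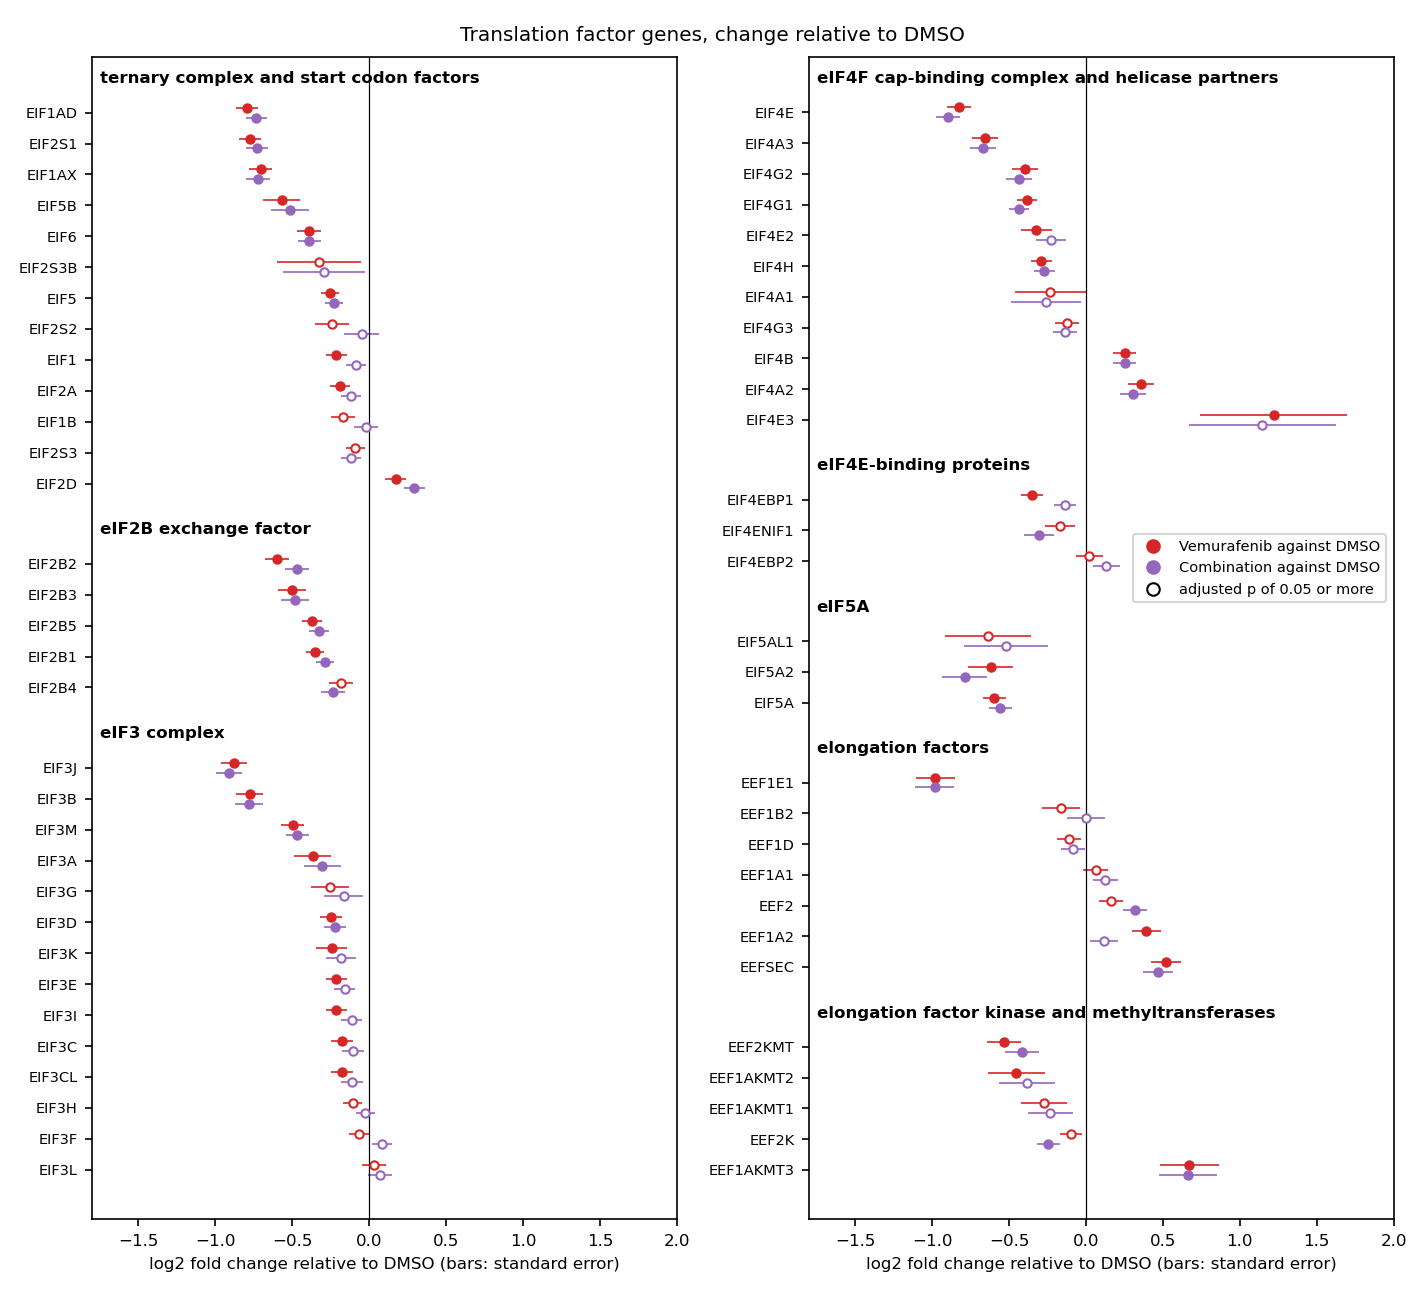
The log2 fold change of each of the 61 tested factors relative to DMSO, by role, for vemurafenib (red) and the combination (purple), with bars for the standard error and open points for genes that did not pass the test. EEF1E1, EIF3J and EIF4E lie farthest to the left for both treatments, and EEFSEC, EIF4A2, EIF4B, EIF2D and EEF1AKMT3 lie to the right with filled points for both.

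Within the cap-binding group, the cap-binding protein itself fell most. EIF4E was at 95.0, 112 and 104 CPM in DMSO, at 86.1, 98.3 and 103 in tretinoin, at 59.2, 57.0 and 59.4 in vemurafenib and at 58.5, 56.5 and 51.9 in the combination. The vemurafenib and combination samples lay below every DMSO and tretinoin sample, and DMSO overlapped tretinoin. The change was -0.83 ± 0.08 with vemurafenib (adjusted p = 1.4e-07) and -0.90 ± 0.08 with the combination (adjusted p = 4.64e-08). EIF4G1, the main scaffold, fell by less, from 709, 749 and 772 CPM in DMSO to 559, 574 and 575 in vemurafenib and 560.0, 542 and 544 in the combination. None of these drug-treated samples reached the DMSO range, and the changes were -0.39 ± 0.07 (adjusted p = 8.8e-05) and -0.44 ± 0.07 (adjusted p = 2.21e-05). The ratio of EIF4E to EIF4G1 counts, which no scaling can alter, was between 0.134 and 0.149 in DMSO and between 0.0994 and 0.106 in vemurafenib.

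EIF4A2 and EIF4B, on the helicase side of eIF4F, rose. EIF4H, listed with the same helicase partners, fell with vemurafenib and with the combination (-0.27 ± 0.07 and adjusted p = 0.00243 with the combination). EIF4A2, an eIF4A helicase, was at 182, 148 and 169.9 CPM in DMSO, at 153, 174 and 169.8 in tretinoin, at 212, 220.1 and 208 in vemurafenib and at 215, 219 and 186 in the combination. Both vemurafenib-containing groups lay above DMSO in every sample, although the lowest combination sample came close to the highest DMSO sample. EIF4A2 rose by 0.36 ± 0.08 with vemurafenib (adjusted p = 0.00175) and by 0.31 ± 0.08 with the combination (adjusted p = 0.00504). EIF4B, which stimulates the helicase, was at 642, 715 and 659.7 CPM in DMSO, at 546, 645 and 627 in tretinoin, at 809, 798 and 795 in vemurafenib and at 806, 771 and 824 in the combination. These groups were again apart, and EIF4B rose by 0.25 ± 0.07 under both treatments (adjusted p = 0.00827 and 0.00838). EIF4A3, the related helicase of the exon junction complex, fell by 0.65 on the log2 scale with vemurafenib and by 0.67 with the combination. The ratio of EIF4A2 to EIF4A3 counts was accordingly between 0.59 and 0.732 in DMSO, between 1.29 and 1.41 in vemurafenib and between 1.17 and 1.4 in the combination.

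EIF4A1, usually the more abundant helicase, could hardly be measured. It lay between 1.85 and 3.22 CPM in DMSO and between 1.92 and 2.41 in vemurafenib, with changes of -0.23 ± 0.23 (adjusted p = 0.414) with vemurafenib and -0.26 ± 0.23 (adjusted p = 0.349) with the combination. The gene is at chr17:7572706-7579005 (GRCh38, plus strand), and 48.6% of its exon length is also exon of other counted genes, among them the readthrough gene SENP3-EIF4A1 with at most 7 counts in any sample. Fragments that fit exons of more than 1 gene were given to none by the authors' counting. EIF4G2, EIF4H and EIF4G3 were at -0.39, -0.29 and -0.12 with vemurafenib, of which EIF4G2 and EIF4H passed the test. EIF4E3, an eIF4E relative, lay below 1 CPM in every sample and its rise of 1.22 ± 0.48 with vemurafenib (adjusted p = 0.0395) was lost in several settings, for example without DMSO replicate 3 (adjusted p = 0.156).

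Of the eIF4E-binding proteins, EIF4EBP1 was the most highly counted and separated vemurafenib from the combination. It was at 221, 220.9 and 205 CPM in DMSO, at 191, 219 and 216 in tretinoin, at 170.4, 155 and 181 in vemurafenib and at 193, 196 and 199.7 in the combination. All combination samples lay between the vemurafenib and the DMSO samples. EIF4EBP1 fell with vemurafenib (-0.35 ± 0.07, adjusted p = 0.000621), whereas the combination was at -0.14 ± 0.07 relative to DMSO (adjusted p = 0.125) and at 0.22 ± 0.07 relative to vemurafenib (adjusted p = 0.126), so the difference between the treatments did not pass the test. Fitted on these 2 groups alone, the same difference passed (adjusted p = 0.0244). The ratio of EIF4E to EIF4EBP1 counts was between 0.43 and 0.509 in DMSO, between 0.327 and 0.367 in vemurafenib and between 0.26 and 0.303 in the combination, with no overlap among these groups. EIF4EBP2 was at 0.02 and 0.13 with no call, and EIF4ENIF1, the eIF4E transporter, fell with the combination (-0.31 ± 0.10, adjusted p = 0.014).

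Among the factors that load the initiator tRNA and select the start codon, 8 of 13 tested fell with vemurafenib and 6 with the combination, and 1 rose with each. The shares of all tested genes that fell were 26.3 and 26.5%, and those of the 4185 highest genes 47.4 and 47.2%. With vemurafenib, EIF1 was not called without DMSO replicate 2 (adjusted p = 0.0605), nor EIF2A without DMSO replicate 3 (adjusted p = 0.0857). Scaled by total counts alone, neither was called with vemurafenib (adjusted p = 0.794 and 0.965), nor was EIF5 with vemurafenib or the combination (adjusted p = 0.431 and 0.351). EIF2S1, the alpha subunit of eIF2 that stress kinases phosphorylate, was at 206, 221 and 209.6 CPM in DMSO, at 168, 198 and 197 in tretinoin, at 124, 124 and 125 in vemurafenib and at 125, 128 and 131 in the combination. Vemurafenib and combination samples lay far below all others, and EIF2S1 changed by -0.77 ± 0.07 (adjusted p = 6.09e-08) and -0.73 ± 0.07 (adjusted p = 1.17e-07). The other subunits of the same trimer were not called. EIF2S3, the gamma subunit, was at -0.09 ± 0.06 with vemurafenib (adjusted p = 0.238), and EIF2S2, the beta subunit, at -0.24 ± 0.11 (adjusted p = 0.0823). The ratio of EIF2S1 to EIF2S3 counts was between 0.573 and 0.639 in DMSO, between 0.375 and 0.39 in vemurafenib and between 0.393 and 0.411 in the combination, so the alpha and gamma transcripts did not keep their proportion.

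EIF1AX, which encodes eIF1A, was at 319, 368 and 325 CPM in DMSO, at 277, 313 and 314 in tretinoin, at 208, 199.6 and 213 in vemurafenib and at 217, 195 and 200.5 in the combination. EIF1AD, which encodes a protein with an eIF1A-like domain, was at 48.1, 52.7 and 54.0 CPM in DMSO, at 44.6, 45.8 and 48.4 in tretinoin, at 29.7, 30.4 and 29.4 in vemurafenib and at 30.8, 31.4 and 31.1 in the combination. For both genes the vemurafenib and combination samples were well below DMSO and hardly differed from each other. EIF1AX changed by -0.71 ± 0.08 and -0.72 ± 0.08 (adjusted p = 5.22e-07 and 3.75e-07), and EIF1AD by -0.79 ± 0.07 and -0.73 ± 0.07 (adjusted p = 4.88e-08 and 1.12e-07). EIF5B, which joins the ribosomal subunits, EIF5, the GTPase activator of eIF2, and EIF6, which keeps the large subunit apart, also fell under both treatments, by between 0.23 and 0.57 on the log2 scale. EIF2D, which can place tRNA on the ribosome without GTP, was the exception. It was at 108, 98.8 and 100.3 CPM in DMSO, at 111, 108 and 103 in tretinoin, at 121, 113 and 112 in vemurafenib and at 116, 129.7 and 131 in the combination. Its samples with vemurafenib lay above DMSO with a narrow gap, and EIF2D rose by 0.17 ± 0.07 with vemurafenib (adjusted p = 0.0445) and by 0.29 ± 0.07 with the combination (adjusted p = 0.00159). The vemurafenib call was lost without DMSO replicate 2 (adjusted p = 0.139) and in other settings.

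**Figure D2:**
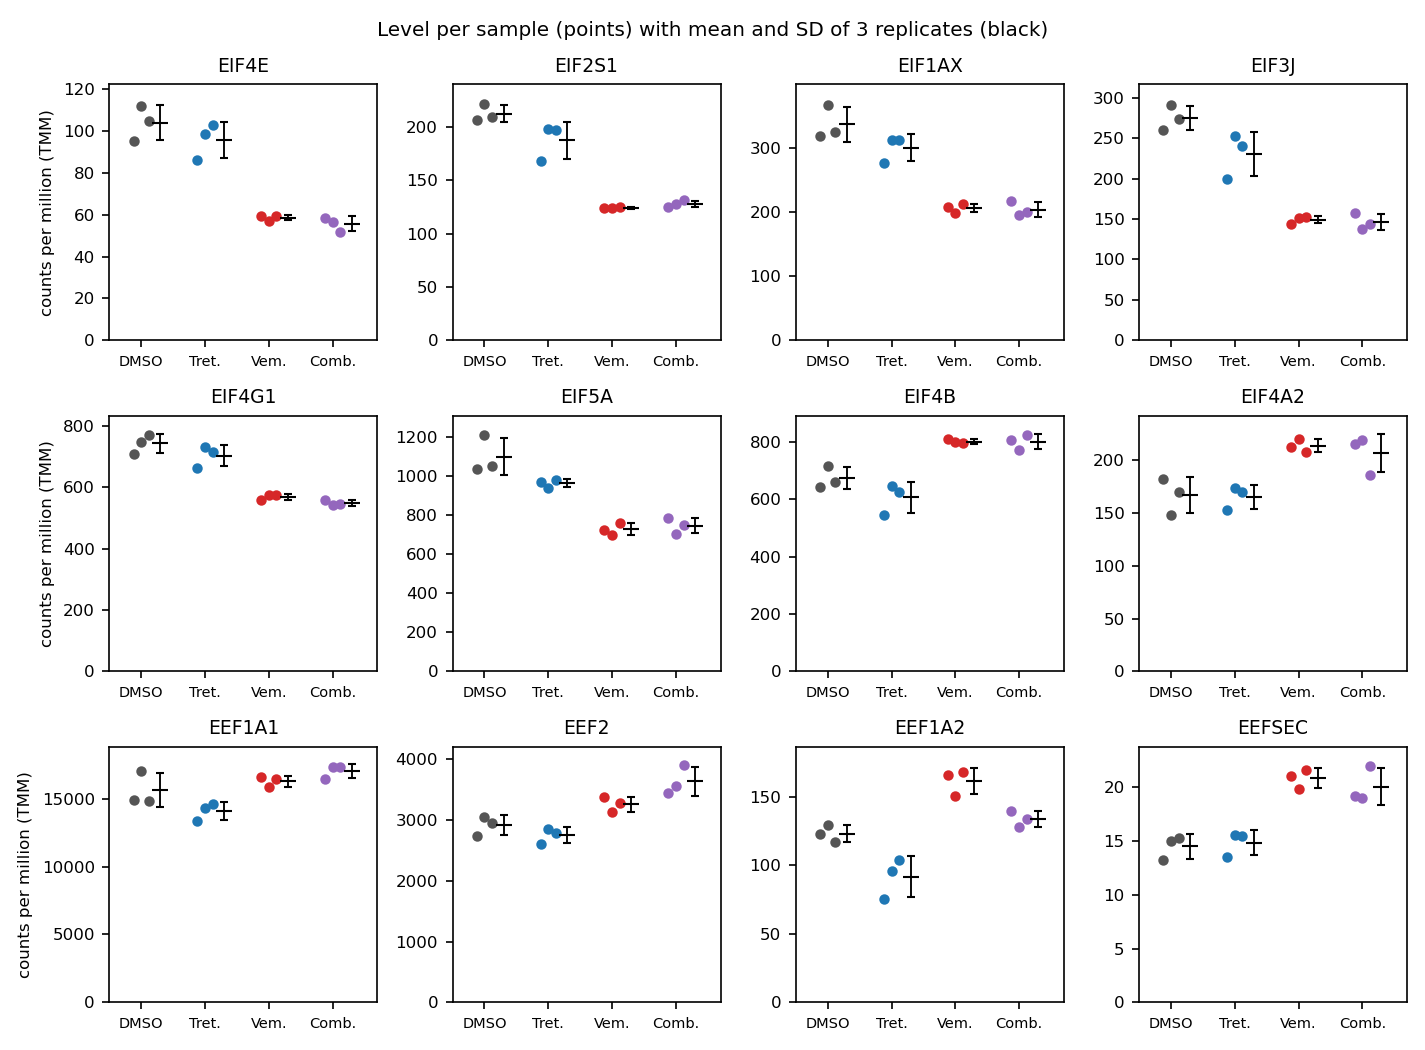
Level of 12 factors in each of the 12 samples in TMM-scaled CPM, by treatment group, with the mean and SD of 3 replicates in black. EIF4E, EIF2S1, EIF1AX, EIF3J, EIF4G1 and EIF5A are lower in every sample with vemurafenib than in any DMSO sample, whereas EIF4B, EIF4A2 and EEFSEC are higher.

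eIF2B recycles eIF2 by exchanging GDP for GTP and is the target of eIF2 phosphorylation. All 5 of its subunit genes were tested, and 4 fell with vemurafenib and 5 with the combination, with none higher. Among all tested genes 26.3 and 26.5% fell, and among the 4185 highest 47.4 and 47.2%. EIF2B2 changed most with vemurafenib (-0.60 ± 0.08, adjusted p = 6.28e-06), from 57.1, 69.0 and 62.2 CPM in DMSO to 42.3, 40.8 and 41.3. EIF2B1 was at 192, 195 and 188 CPM in DMSO and at 146, 150.1 and 154 in vemurafenib (-0.35 ± 0.06, adjusted p = 7.52e-05). The vemurafenib samples of both genes were below every DMSO sample. EIF2B4 was the subunit not called with vemurafenib (-0.18 ± 0.08, adjusted p = 0.0548), and its call with the combination (-0.23 ± 0.08, adjusted p = 0.0168) was lost without DMSO replicate 3 (adjusted p = 0.0542) or combination replicate 3 (adjusted p = 0.0567).

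The eIF3 complex showed an uneven response. With vemurafenib 10 of 14 subunit genes fell and none rose, or 9 of 13 with the near-identical EIF3C and EIF3CL counted once, and with the combination 5 fell and none rose. Of all tested genes 26.3% fell with vemurafenib and 26.5% with the combination, and of the 4185 highest genes 47.4 and 47.2%. EIF3J, the loosely bound subunit at the decoding site, was at 261, 291 and 273 CPM in DMSO, at 199.9, 252 and 240.1 in tretinoin, at 144, 152 and 153 in vemurafenib and at 157, 137 and 144 in the combination. The groups with vemurafenib were far below DMSO, and the changes were -0.88 ± 0.08 (adjusted p = 1.18e-07) and -0.91 ± 0.08 (adjusted p = 7.15e-08). EIF3B, a core scaffold subunit, changed by -0.78 ± 0.09 under both treatments, and EIF3M by -0.50 ± 0.08 and -0.47 ± 0.08. The other subunits lay between -0.37 and 0.03 with vemurafenib. Several of these calls depended on single libraries. With vemurafenib, EIF3C, EIF3CL, EIF3E and EIF3K were not called without DMSO replicate 2 (adjusted p = 0.142, 0.132, 0.0813 and 0.257), nor was EIF3A (adjusted p = 0.0607), and EIF3I was not called without vemurafenib replicate 2 (adjusted p = 0.0607). Those first 5 genes were also lost without vemurafenib replicate 1 (adjusted p from 0.0554 to 0.165), EIF3C, EIF3CL, EIF3E and EIF3K without vemurafenib replicate 2, EIF3C and EIF3CL without vemurafenib replicate 3 or DMSO replicate 3, and EIF3K without DMSO replicate 1. With the combination, EIF3A was called (-0.30 ± 0.12, adjusted p = 0.0398) but not without any 1 of the DMSO replicates (adjusted p from 0.0615 to 0.126) or without combination replicate 2 or 3 (adjusted p = 0.116 and 0.112), and EIF3D was not called without DMSO replicate 3 (adjusted p = 0.0502) or combination replicate 1 (adjusted p = 0.0724). EIF3C and EIF3CL share a stretch of 3085 bases and the ratio of their counts was between 0.97 and 0.994 in all samples, so they cannot be counted as separate observations. EIF3L and EIF3F did not pass the test under either treatment. Scaled by total counts alone, EIF3A, EIF3D, EIF3E, EIF3I and EIF3K were not called with vemurafenib (adjusted p from 0.189 to 0.814). EIF3C and EIF3CL were then just above 0, and with the combination EIF3A and EIF3D were not called (adjusted p = 0.281 and 0.447).

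eIF5A carries the modified amino acid hypusine and helps ribosomes through difficult peptide bonds. EIF5A was at 1033, 1208 and 1052 CPM in DMSO, at 966, 939 and 979.6 in tretinoin, at 724, 697 and 759 in vemurafenib and at 784, 703.5 and 748.5 in the combination. All vemurafenib and combination samples were below all others, with changes of -0.59 ± 0.08 (adjusted p = 3.67e-06) and -0.56 ± 0.08 (adjusted p = 7.21e-06). The second gene, EIF5A2, was counted far less and fell by 0.62 and 0.79 on the log2 scale. EIF5A shares up to 465 bases with other annotated transcripts, including that of EIF5AL1, which was not called.

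Of 7 elongation factors tested, 2 rose and 1 fell with each treatment. Beside this, 26.4% of all tested genes rose and 26.3% fell with vemurafenib, and 27.1 and 26.5% with the combination. For the 4185 highest genes the shares were 13.5 and 47.4% with vemurafenib and 14.3 and 47.2% with the combination. EEF1A1, the main eEF1A gene and the most highly counted factor, was at 14910, 17040 and 14850 CPM in DMSO, at 13320, 14330 and 14600 in tretinoin, at 16620, 15840 and 16420 in vemurafenib and at 16410, 17300 and 17360 in the combination. The DMSO range covered all vemurafenib samples, and the changes of 0.06 ± 0.08 (adjusted p = 0.538) and 0.13 ± 0.08 (adjusted p = 0.203) did not pass the test. EEF2, the translocase, was at 2732, 3052 and 2950.0 CPM in DMSO, at 2604, 2855 and 2782 in tretinoin, at 3373, 3126 and 3276 in vemurafenib and at 3434, 3558 and 3902 in the combination. Its lowest vemurafenib sample was just above the highest DMSO sample, with a change of 0.16 ± 0.08 (adjusted p = 0.0856). That change passed the test with only genes of at least 10 counts in every sample (0.21, adjusted p = 0.0341) and with only the 2 groups compared (0.17, adjusted p = 0.0324). EEF2 rose with the combination by 0.32 ± 0.08 (adjusted p = 0.00207).

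These levels depend on the scaling. Without TMM factors, scaled by total counts alone, the median of all tested genes moved from 0.02 to 0.21 with vemurafenib and from 0.03 to 0.19 with the combination. EEF1A1 was then called higher with vemurafenib (0.26, adjusted p = 0.000985) and the combination (0.29, adjusted p = 0.000363), and EEF2 with vemurafenib (0.36, adjusted p = 7.26e-05). As a share of all counts, EEF1A1 made up 1.38 to 1.53% in DMSO, 1.34 to 1.4% in tretinoin, 1.7 to 1.76% in vemurafenib and 1.71 to 1.8% in the combination. Under that scaling 20 of the 61 factors were called lower with vemurafenib, when 15.7% of all tested genes were, and 13 were called higher with the combination, when 37.3% of all tested genes were. With the combination, EEF2K, EEF2KMT, EIF2B1, EIF2B4, EIF3A, EIF3D, EIF4ENIF1, EIF4H and EIF5 were no longer called lower (adjusted p from 0.0545 to 0.447). Of all tested genes, 2916 were called lower with the combination under that scaling. EIF3C, EIF3CL and EIF2A, called lower with vemurafenib, were then just above 0.

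EEF1A2, the eEF1A gene of muscle and neurons that many tumours express, was called in opposite directions under the single drugs. It was at 123, 129.4 and 117 CPM in DMSO, at 75.1, 96.1 and 104 in tretinoin, at 166, 150.5 and 168 in vemurafenib and at 139, 128 and 134 in the combination. Tretinoin samples lay below DMSO, vemurafenib samples lay above it, and combination samples overlapped DMSO. EEF1A2 fell with tretinoin (-0.42 ± 0.09, adjusted p = 0.0139), rose with vemurafenib (0.39 ± 0.09, adjusted p = 0.00184) and was at 0.12 ± 0.09 with the combination (adjusted p = 0.3). The fall with tretinoin did not pass when tretinoin and DMSO were fitted alone (-0.41, adjusted p = 0.118). Relative to vemurafenib the combination was at -0.27 ± 0.09 (adjusted p = 0.124), which passed when these groups were fitted alone (adjusted p = 0.00409). Relative to tretinoin it was at 0.54 ± 0.09 (adjusted p = 0.00013). The ratio of EEF1A2 to EEF1A1 counts was between 0.0076 and 0.00823 in DMSO, between 0.00564 and 0.00713 in tretinoin and between 0.0095 and 0.0102 in vemurafenib.

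EEFSEC, the elongation factor that delivers selenocysteine, was at 13.2, 15.0 and 15.3 CPM in DMSO, at 13.5, 15.6 and 15.5 in tretinoin, at 21.0, 19.8 and 21.6 in vemurafenib and at 19.2, 19.0 and 22.0 in the combination. Every sample with vemurafenib was above every sample without it, and EEFSEC rose by 0.52 ± 0.10 (adjusted p = 0.000239) and 0.47 ± 0.10 (adjusted p = 0.000573). EEF1E1 fell to about the same degree under both treatments (-0.98 ± 0.13 each), from 10.9, 10.9 and 11.03 CPM in DMSO to 5.77, 6.26 and 4.51 in vemurafenib. Despite its symbol it encodes a subunit of the multi-tRNA synthetase complex. EEF1B2 and EEF1D, subunits of the eEF1A exchange factor, were not called. EEF1G, at chr11:62559601-62574086 (GRCh38, minus strand), was listed at 0 in every sample, and 99.9% of its exon length is also exon of the gene AP002990.1, which had between 18 and 48 counts, so EEF1G could not be assessed.

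The elongation factor kinase EEF2K, which inhibits eEF2 by phosphorylation, was at 38.4, 40.7 and 41.8 CPM in DMSO, at 45.8, 43.8 and 39.9 in tretinoin, at 37.4, 39.4 and 36.1 in vemurafenib and at 35.0, 34.0 and 32.9 in the combination. The combination samples were below all others, while vemurafenib overlapped DMSO. EEF2K was at -0.10 ± 0.07 with vemurafenib (adjusted p = 0.286) and fell with the combination (-0.25 ± 0.07, adjusted p = 0.0099). The difference between these treatments did not pass the test (-0.15 ± 0.07, adjusted p = 0.386). The fall with the combination was not called under total counts alone (adjusted p = 0.406) or without a filter on low counts (adjusted p = 0.0524). Among the methyltransferases, EEF1AKMT3, which modifies eEF1A, was at 3.996, 2.90 and 3.43 CPM in DMSO, at 6.30, 4.18 and 4.44 in tretinoin, at 5.40, 6.16 and 4.87 in vemurafenib and at 4.46, 5.58 and 6.29 in the combination. All drug-treated samples were above the DMSO samples, and the rise was 0.67 ± 0.19 with vemurafenib (adjusted p = 0.00697) and 0.66 ± 0.19 with the combination (adjusted p = 0.00694), whereas tretinoin was at 0.51 ± 0.20 without passing the test (adjusted p = 0.133). EEF2KMT, which modifies eEF2, fell by 0.53 and 0.42 on the log2 scale.

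**Figure D3:**
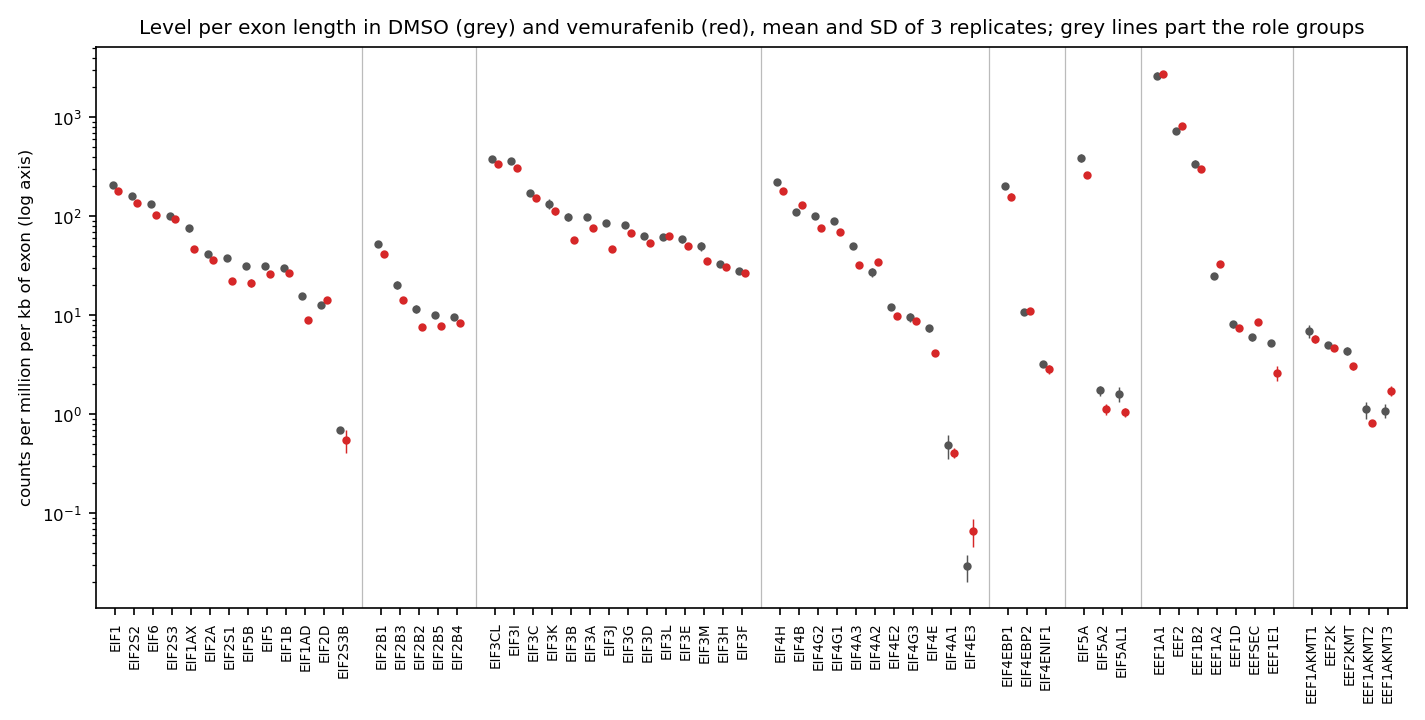
Mean level per kilobase of exon in DMSO (grey) and vemurafenib (red) with the SD of 3 replicates, on a log axis, for the 61 tested factors ordered within role groups. EEF1A1 and EEF2 stand above all other factors, and EIF4A1 and EIF4E3 are the lowest.

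Compared per exon length in DMSO, EEF1A1 was the most abundant factor with 2623 ± 209.7 CPM per kb, followed by EEF2 with 723 ± 40.5 and EIF5A with 389.9 ± 34.1 (SD, n = 3). EIF5A, EIF3CL (381 ± 15.0) and EIF3I (359 ± 5.31) differed by little more than their spread. The place of EIF3CL rests on its short annotated exon length of 3091 bases. EIF3C, with nearly the same counts over 6982 bases, was at 172.6 ± 6.85. EIF4E, at 7.4 CPM per kb of its long annotated exons, was below EIF4G1. The 66 factors together took 3.21 to 3.4% of all counts in DMSO, 3.04 to 3.2% in tretinoin, 3.5 to 3.59% in vemurafenib and 3.58 to 3.67% in the combination, of which EEF1A1 was the largest part. The factors left untested were EEF1G, EEF1E1-BLOC1S5, EIF4E1B, EIF4EBP3 and EIF1AY.

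Tretinoin alone changed few factors. EIF3M and EEF1A2 fell and none rose, which makes 3.28% called lower, beside 2.2% of all tested genes called lower and 3.48% called higher. The median over the factors was -0.11, against -0.06 over the 4185 highest genes and 0.01 over all tested genes. EIF3M, an eIF3 subunit, was at 347, 414 and 343 CPM in DMSO and at 288, 311 and 321 in tretinoin, which did not overlap (-0.26 ± 0.08, adjusted p = 0.0486). That call was lost without DMSO replicate 2 (adjusted p = 0.284), and so was the call of EEF1A2 (adjusted p = 0.0862). DESeq2 called 6 factors lower with tretinoin and none higher, beside 3.83 and 3.92% of all tested genes. They were EEF1A2, EIF3B, EIF3J, EIF3M and the pair EIF3C and EIF3CL, which makes 5 with that pair counted once. Tretinoin replicate 1 was the lowest of its group in 42 of the 61 factors, as for EIF3A with 422 CPM against 662 and 643.5 in the other replicates and EIF2S2 with 269.8 against 385 and 397. Without that library 1 factor, EEF1A2, was called lower (-0.30, adjusted p = 0.00974), beside 353 of all 17119 tested genes.

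Adding tretinoin to vemurafenib changed no factor by the test. The edgeR comparison of the combination with vemurafenib gave 0 higher and 0 lower, with 2.27 and 2.2% of all tested genes called, and DESeq2 also called 0. The median over the factors was 0.04, against 0.0 over all tested genes, and the differences ran from -0.27 to 0.22. A test of whether the effect of the combination departed from the sum of the single drugs called 0 factors, beside 0.382% of all genes called higher and 0.424% called lower. Its median was 0.15 over the factors, 0.05 over the 4185 highest genes and -0.01 over all tested genes. DESeq2 called 1 factor, EIF3F, higher, and 0.753% of all genes. Relative to tretinoin, the combination raised 8 factors and lowered 23, beside 24.1 and 25.0% of all tested genes. The risers were EEF1A1 (0.27 ± 0.08), EEF1A2, EEF2 (0.40 ± 0.08), EEFSEC, EIF2D, EIF3F (0.26 ± 0.07), EIF4A2 and EIF4B (0.40 on the log2 scale). EEF1A1 was not called when only these 2 groups were fitted (adjusted p = 0.0546).

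Genes that act on these factors were followed in a list of 38, all of them tested. With vemurafenib 6 rose and 15 fell (15.8 and 39.5%, beside 26.4 and 26.3% of all tested genes), with the combination 7 rose and 16 fell (18.4 and 42.1%, beside 27.1 and 26.5%), and with tretinoin 1 rose. Of 13 regulators of eIF4F, 4 rose and 2 fell with vemurafenib. The risers were PDCD4, an inhibitor of eIF4A (0.61 ± 0.09, adjusted p = 2.17e-05), PAIP2B, an inhibitor of the poly(A)-binding protein (1.32 ± 0.25, adjusted p = 0.000284), MKNK1, which phosphorylates eIF4E (0.45 ± 0.09, adjusted p = 0.000501), and MTOR (0.32 ± 0.09, adjusted p = 0.00469). LARP1, which binds the cap of mRNAs with a pyrimidine start, fell with vemurafenib (-0.34 ± 0.07, adjusted p = 0.000707) and the combination (-0.53 ± 0.07, adjusted p = 9.92e-06). MKNK2 rose with the combination (0.43 ± 0.07, adjusted p = 5.68e-05) and was higher there than with vemurafenib alone (0.36 ± 0.07, adjusted p = 0.00376).

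Of 6 other initiation factors 4 fell with vemurafenib, when 26.3% of all tested genes fell. Among the 4 were ABCE1, which recycles ribosomes (-0.81 ± 0.07, adjusted p = 4.71e-08), and the helicase DDX3X (-0.62 ± 0.07, adjusted p = 1.41e-06). Of 5 termination and rescue factors 4 fell, including ETF1, the release factor that reads stop codons (-0.63 ± 0.07, adjusted p = 3.75e-07), and its partner GSPT1 (-0.62 ± 0.06, adjusted p = 4.23e-07). Of 8 genes for the enzymes that modify eIF5A and eEF2, 4 fell and 1 rose. The fallers included both hypusine enzymes, DHPS (-0.37 ± 0.08, adjusted p = 0.00083) and DOHH (-0.72 ± 0.13, adjusted p = 0.000162), and DPH2 of diphthamide synthesis (-0.84 ± 0.06, adjusted p = 5.73e-09). Among the eIF2 kinases and phosphatase subunits, EIF2AK4 rose and PPP1R15A fell with vemurafenib (0.25 ± 0.07, adjusted p = 0.00395, and -0.58 ± 0.13, adjusted p = 0.00141).

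Many mRNAs of the translation machinery begin with a C followed by an unbroken run of C and T, known as a terminal oligopyrimidine start. The first letters of the factors' transcripts were therefore read from the RefSeq promoter windows (GRCh38.p14). A window was found for 48 of the 61 tested factors. None was found for EEF1A2, EEF1AKMT1, EEF1AKMT3, EEF1D, EEF2KMT, EIF2S2, EIF3A, EIF3CL, EIF3E, EIF3G, EIF3H, EIF3L and EIF4EBP1, which enter no split below. Of the 48 factors, 13, or 27.1%, began with C and at least 4 further C or T at the annotated start. The same start was found for 7.52% of 10672 tested protein-coding genes and in 4.07% of all 35116 windows. The 30 letters shown here run from 10 before the annotated start to 20 from it on the transcribed strand, with the run of C and T from the start in capitals. EEF1A1, EEF2, EIF4B, EIF4A2, EIF3F and EIF2S3 have such a run and did not fall with vemurafenib, while EIF4E, EIF2S1, EIF1AX and EIF3B lack it, have no capitals, and fell. They were chosen with the changes known and show the contrast at its clearest. EIF2A, EIF3D, EIF3K and EIF3M have such a run and fell, while EEFSEC and EIF4E3 lack it and rose. Others that lack it, such as EIF2B4 and EEF2K, were not called with vemurafenib.
EEF1A1 (chr6:73521013-73521042, minus strand): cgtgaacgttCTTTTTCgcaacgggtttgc
EEF2 (chr19:3985444-3985473, minus strand): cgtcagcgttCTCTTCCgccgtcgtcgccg
EIF4B (chr12:53006446-53006475, plus strand): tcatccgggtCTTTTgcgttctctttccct
EIF4A2 (chr3:186783567-186783596, plus strand): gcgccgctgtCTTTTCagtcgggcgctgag
EIF3F (chr11:7987327-7987356, plus strand): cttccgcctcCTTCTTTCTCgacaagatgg
EIF2S3 (chrX:24054946-24054975, plus strand): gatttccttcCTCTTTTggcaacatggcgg
EIF4E (chr4:98929114-98929143, minus strand): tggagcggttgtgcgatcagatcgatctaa
EIF2S1 (chr14:67360318-67360347, plus strand): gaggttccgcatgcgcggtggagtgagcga
EIF1AX (chrX:20141819-20141848, minus strand): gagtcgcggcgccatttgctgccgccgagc
EIF3B (chr7:2354817-2354846, plus strand): tcgcacgcacatggctgggctgtagccgtc

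The 13 factors with this start were EEF1A1, EEF1B2, EEF2, EIF2A, EIF2D, EIF2S3, EIF2S3B, EIF3D, EIF3F, EIF3K, EIF3M, EIF4A2 and EIF4B. With vemurafenib 3 of them rose and 4 fell, with a median log2 fold change of -0.09, and of the 35 factors with another start 2 rose and 25 fell, with a median of -0.39. With the combination the numbers were 4 and 2 (median 0.0) against 1 and 23 (median -0.38). Over all tested protein-coding genes the contrast was small, with 24.9% of genes with this start and 30.9% of the others lower with vemurafenib, and medians of 0.0 and -0.01. The split was made after the changes had been seen, so it is a description and carries no test. Factors with this start were also the more abundant, with a median level in DMSO of 63.4 CPM per kb of exon against 20.3 for the others, and the part of level in the split was not tested.

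**Figure D4:**
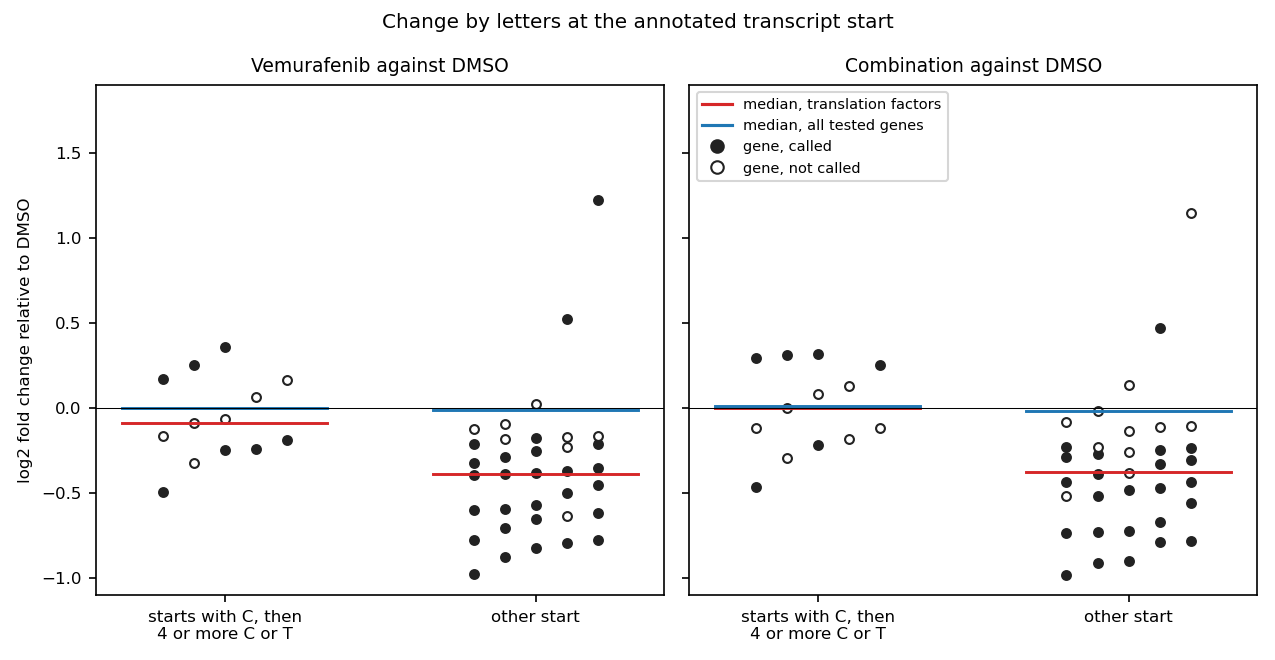
The log2 fold change relative to DMSO of the 48 factors with a RefSeq window, for vemurafenib (left) and the combination (right), split by the letters at the annotated transcript start, with filled points for called genes, a red line at the median of the factors and a blue line at the median of all tested protein-coding genes. The red lines lie at -0.09 and 0.0 for factors with a pyrimidine start and at -0.39 and -0.38 for the others, while the blue lines stay near 0.

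The letters CACGTG, an E-box that MYC and related factors can bind, and CCGGAAG, a core that ETS factors can bind, were searched on both strands of the same windows, from 250 letters before to 50 after the start. The E-box was present for 25.0% of the factors and 12.6% of all tested protein-coding genes, and the ETS core for 31.2 and 21.5%. Of 12 factors with the E-box 7 fell and 2 rose with vemurafenib (median -0.27), and of 36 without it 22 fell and 3 rose (median -0.29), while over all tested protein-coding genes 34.1% with it and 29.9% without it fell. Of 15 factors with the ETS core 11 fell and 1 rose (median -0.35), and of 33 without it 18 fell and 4 rose (median -0.24), beside 34.6 and 29.3% of all genes lower. The medians with and without either motif lay closer together than those by start letters. The start-letter split was made after the changes had been seen. None of these splits was tested, so this order is only a description.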

How the data were processed

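Polyadenylated RNA of 12 A375 samples was sequenced from strand-specific libraries. The authors aligned reads with STAR 2.5.3a to GRCh38.p10, counted fragments on GENCODE 27 exons in union mode with strand ignored, and deposited raw counts per gene. Symbols, positions and exon lengths came from GENCODE 29, which holds 58084 of the 58347 identifiers. Groups came from the sample labels. Genes passing filterByExpr were scaled by TMM and fitted with the edgeR 4.0.16 quasi-likelihood test (R 4.3.3), with 1 term per group over all 12 samples and no block (common dispersion 0.00653), and p-values were adjusted by Benjamini-Hochberg over all 16740 genes. The scripts were tested on simulated data. Alternatives were DESeq2 1.42.0, other scalings, other filters, only the groups compared, a replicate block and each library left out. Shared sequence means at least 150 bases at 98% identity (blastn 2.17.0).

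The members and gene lists were chosen with earlier results of these data known. Genes given with every sample's value are the most changed member calls and a set of main factors by role; EIF3B, EEF1E1, EIF2B1, EIF2B2, the ratios and the start letters were added after the values were seen. The fold change of a gene with few counts has a wide error at this depth. Same-numbered replicates did not deviate together (mean correlation -0.031, from -0.143 to 0.087 over 18 pairs), so they were not treated as pairs.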

Additional observations from a re-analysis of the deposited data

How the results depend on the processing

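The calls of 25 of the 41 factors changed with vemurafenib and of 24 of the 33 changed with the combination held under every alternative, and 29 and 30 held without each of the 6 libraries compared. Leaving out a library, 27 to 33 factors fell with vemurafenib and 24 to 28 with the combination. Of 17077 to 17206 tested genes, 3917 to 4219 and 4004 to 4242 fell in these fits. Scaling by total counts alone gave 20 factors lower with vemurafenib and 13 higher with the combination relative to DMSO, beside 2628 and 6242 of all 16740 tested genes. It also removed the lower calls of EEF2K, EEF2KMT, EIF2B1, EIF2B4, EIF3A, EIF3D, EIF4ENIF1, EIF4H and EIF5 with the combination, when 2916 of all tested genes were lower. For the combination it gave 13 higher relative to tretinoin and 1 lower relative to vemurafenib, beside 5051 and 434 of all tested genes. With tretinoin 1 factor was lower, beside 174 of all tested genes, and by construction this scaling moves all genes together. It turned the direction of EIF2A (0.0038), EIF3C (0.019), EIF3CL (0.019) and EEF2K (0.098) with vemurafenib and of EIF4EBP1 (0.026) with the combination, none of them then called. The count of factors lower with tretinoin was 2 in the reported fit, 6 with DESeq2, 7 without a filter and 1 with at least 10 counts in every sample. Of all tested genes, 368 and 641 of 16740, 804 of 41806 and 299 of 13746 were lower in these settings. With only the groups compared 0 factors were lower, beside 71 of 15163 genes. Without single libraries it was 0 to 6, beside 106 to 656 genes, the highest without tretinoin replicate 3. With the replicate number as a block, although it does not pair the samples, 1 factor was lower with tretinoin, beside 219 of all 16740 tested genes. With only the groups compared, 1 factor was higher and 1 lower in the combination relative to vemurafenib, beside 584 and 685 of all 16320 tested genes. The interaction gave 1 factor higher with DESeq2 and 2 without a filter (EIF2S2 and EIF3G), beside 126 of 16740 and 389 of 41806 tested genes. The cause was not tested for these settings. Few counts limit EIF4A1, EIF4E3 and EEF1AKMT3.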
